A study of Rattus norvegicus with 23 samples.

Results

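Carbonic anhydrases are the zinc enzymes that interconvert carbon dioxide and water with bicarbonate and a proton, and so couple the pH of a cell and of its surroundings to bicarbonate transport. The family has cytosolic, mitochondrial, membrane-bound and secreted members, besides relatives that have lost the catalytic zinc site. In the kidney, cytosolic and membrane-bound members serve the recovery of bicarbonate and the excretion of acid by the tubule. The transcripts of this family were followed in rat kidney cells kept at a normal or an acidic pH. A gene was taken as a member when its symbol was Ca or Car followed by a number and, in some cases, the letter a or b, and when it had at least 10 counts in at least 3 of 23 samples. Of the 30452 genes in the table, 16 carried such a symbol and 8 of them reached the count limit: Ca9, Ca14, Ca5b, Ca13, Ca3, Car1, Ca11 and Ca6.

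NRK-52E and NRK-49F are established lines from normal rat kidney, the former labelled epithelial and the latter fibroblast. All cells were first kept without serum for 24 h and then for 48 h in medium at pH 7.4, the control, or at pH 6.0, set with hydrochloric acid. There were n = 6 samples of NRK-52E cells at each pH, n = 6 of NRK-49F cells at pH 7.4 and n = 5 of NRK-49F cells at pH 6.0. The labels further divide the samples into sample groups, numbered 1 and 3 in NRK-52E and 4 and 6 in NRK-49F cells, and each sample group has both pH values. What a sample group stands for is not given in the sources used here, and no source says whether samples came from separate cultures, so p-values measure the spread between these samples. Total counts per sample were between 16412564 and 34250535, so that 3 counts corresponded to 0.0839 to 0.203 FPM. FPM are counts of fragments scaled to the library size with TMM factors (the unit that edgeR calls CPM) and were not divided by transcript length, so levels are compared between samples and not between genes.

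Of 9 fibroblast markers, 7 had a higher mean in NRK-49F cells at pH 7.4, such as Pdgfra with 306 FPM against 1.83 FPM in NRK-52E cells. Col3a1 had the opposite order (1212 against 6149 FPM) and Thy1 was at 0 in both. Epithelial genes did not mark the NRK-52E cells. Of the epithelial markers Cdh1, Epcam, Krt8, Krt18, Cldn4, Cldn7, Esrp1 and Cdh16, Krt8 alone was above a mean of 0.2 FPM in any group, and it was higher in NRK-49F (839 FPM) than in NRK-52E cells (499 FPM) at pH 7.4. Of 5 markers of the acid-secreting intercalated cells, Slc4a1, Foxi1 and Rhcg were at or near 0 in every group, and the 5 summed to between 1.97 and 12.5 FPM. Some libraries had more signal than others of genes typical of the other line. Genes that were above 10 FPM in every NRK-52E sample and near 0 in NRK-49F cells (16 genes) reached 5.31% of their NRK-52E level in NRK-49F sample A051 and 0.981% in A039, against 0.0260% to 0.394% in the other NRK-49F samples. Genes of NRK-49F cells chosen in the same way (117 genes) reached 1.39% of their NRK-49F level in NRK-52E sample A021 and at most 0.469% in the other NRK-52E samples. Counts of members were therefore also made without A021, A039 and A051. The 16 and 117 genes were chosen on these same samples as near 0 in the other line, so most samples were low by that choice. The source of the higher signal was not tested.

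The 8 genes below the count limit included members that are well known in the kidney. Car2, the main cytosolic enzyme of kidney tubule cells, had 9 counts in all 23 samples together, and Ca4, anchored at the apical membrane of tubule cells, had 1. Ca12, a membrane enzyme with an extracellular active site, had 61 counts in all and at most 17 in a sample. Car7 and Car15 had 24 and 18 counts in all, and the mitochondrial Ca5a had 2. No count fell on Ca8 or Car10, which lack catalytic activity.

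The genes Car2, Ca3, Car1 and Ca13 lie next to each other in this order on chromosome 2 in RefSeq, with no other protein-coding gene between them. Ca14 is also on chromosome 2, Ca9 and Ca6 are on chromosome 5, Ca11 is on chromosome 1 and Ca5b is on the X chromosome. RefSeq promoters were at hand for 4 of the 8 members. In NRK-52E cells Ca9 and Ca5b fell, and Ca11 and Ca14 rose, of which Ca11 by test within sample group 1 and not within sample group 3. In NRK-49F cells Ca9, Ca11 and Ca14 rose and Ca5b fell. All 4 promoters are shown here. Each runs from 240 bases before the transcript start to 10 bases after it, 5′ to 3′ on the gene's strand, in the assembly GRCr8. Capitals mark the core of the hypoxia response element, which hypoxia-inducible factors bind (ACGTG or GCGTG, on either strand), and AP-1 sites (TGANTCA, on either strand).
Ca9 (chr5:62558784-62559033, plus strand): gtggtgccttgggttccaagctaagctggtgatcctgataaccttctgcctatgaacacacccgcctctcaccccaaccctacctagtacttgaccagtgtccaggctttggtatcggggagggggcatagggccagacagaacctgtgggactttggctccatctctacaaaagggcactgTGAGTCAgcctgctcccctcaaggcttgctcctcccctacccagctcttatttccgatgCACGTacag
Ca5b (chrX:34118786-34119035, plus strand): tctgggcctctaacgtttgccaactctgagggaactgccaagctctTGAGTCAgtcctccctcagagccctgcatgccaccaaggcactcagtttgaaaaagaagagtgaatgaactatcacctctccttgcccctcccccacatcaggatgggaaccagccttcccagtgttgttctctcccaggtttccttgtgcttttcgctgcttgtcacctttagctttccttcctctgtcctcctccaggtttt
Ca11 (chr1:105306300-105306549, plus strand): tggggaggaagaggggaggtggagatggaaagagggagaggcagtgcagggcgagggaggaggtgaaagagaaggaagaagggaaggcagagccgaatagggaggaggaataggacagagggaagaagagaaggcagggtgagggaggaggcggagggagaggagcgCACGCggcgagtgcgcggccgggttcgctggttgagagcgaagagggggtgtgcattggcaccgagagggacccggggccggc
Ca14 (chr2:186138155-186138404, minus strand): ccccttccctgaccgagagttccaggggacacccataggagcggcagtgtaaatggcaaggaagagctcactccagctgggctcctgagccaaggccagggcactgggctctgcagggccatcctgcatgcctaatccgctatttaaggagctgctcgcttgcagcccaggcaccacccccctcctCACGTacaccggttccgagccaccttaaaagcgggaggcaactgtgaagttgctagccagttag
The Ca9 promoter held a hypoxia response core at position 2 of the transcript and an AP-1 site that begins at position -58. Ca5b had an AP-1 site at position -194 and no hypoxia response core. Ca11 and Ca14 each had a single hypoxia response core, at positions -73 and -54, and no AP-1 site. Over the 33469 RefSeq promoters, taken from 250 bases before to 50 bases after the start, 41.6% held ACGTG or GCGTG and 7.33% held TGANTCA. The E-box CACGTG (6.42% of promoters, and itself a match to ACGTG), TGATGNAA (3.98%) and the cAMP response element TGACGTCA (1.83%) were not found in these 4 windows. A match in a window is a description of its letters only.

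The first question was which members responded to the acidic medium in each line. In NRK-52E cells, 5 of the 7 tested members were regulated at pH 6.0 (edgeR's quasi-likelihood test, adjusted p under 0.05), of which Ca11, Ca13 and Ca14 were higher and Ca5b and Ca9 lower. Of all 14777 tested genes, 61.2% were called in this comparison (24.7% higher and 36.6% lower), so the share among the members is near the background. In NRK-49F cells, 6 of 7 were regulated, with Ca11, Ca14 and Ca9 higher and Ca13, Ca3 and Ca5b lower, where 28.9% of all tested genes were called (14.5% higher and 14.4% lower). Without A021, A039 and A051, 3 of 7 members (Ca11, Ca9 and Ca3) were called in NRK-49F cells, against 20.6% of the genes tested. The 5 calls in NRK-52E cells were kept, where 57.5% of the genes tested were called. Ca6 had too few counts for the test. Levels of the pH values did not overlap for 4 members in NRK-52E cells (Ca13 and Ca14 higher, Ca5b and Ca9 lower) and for 4 in NRK-49F cells (Ca11 and Ca9 higher, Ca3 and Ca5b lower). This was the case for 38.6% and 20.6% of all tested genes. Marker levels moved with pH as well. The summed level of the 9 fibroblast markers went from 4901 to 8102 down to 1830 to 3110 FPM in NRK-52E and from 10494 to 13564 down to 7315 to 9806 FPM in NRK-49F cells. In NRK-52E cells this sum was mostly Col3a1, and in NRK-49F cells the mean of Vcam1 went the other way, from 272 to 402 FPM. The sum of the epithelial markers, nearly all Krt8, went from 441 to 651 down to 196 to 260 FPM in NRK-52E cells, and from 667 to 1207 down to 438 to 696 FPM with overlap in NRK-49F cells. The 7 proximal tubule markers, mostly Aqp1 and Ggt1, went from 420 to 641 up to 1144 to 1614 FPM in NRK-49F cells. The part of these markers in the results was not tested. In bulk samples, fewer cells with a transcript and less of it per cell cannot be told apart.

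**Figure D1:**
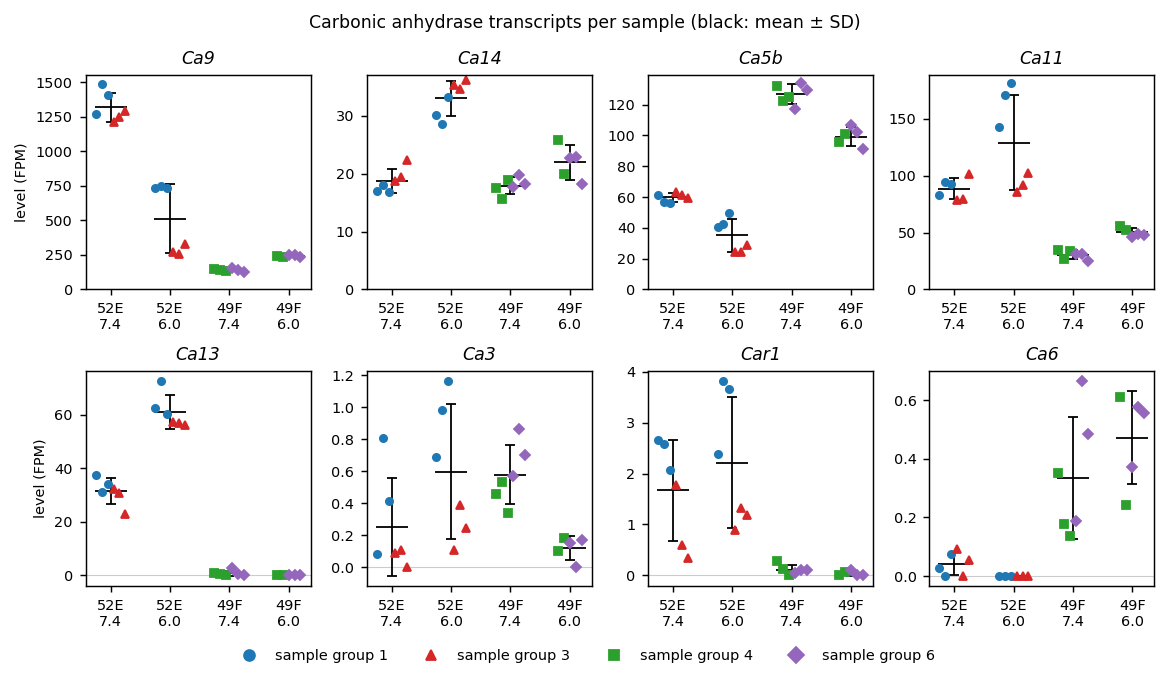
Level of each carbonic anhydrase (y axis, FPM, linear and on its own scale per gene) in every sample of NRK-52E and NRK-49F cells at pH 7.4 and 6.0 (x axis). Symbols give the sample group and black bars the mean ± SD of n = 6, 6, 6 and 5 samples. Ca9 in NRK-52E cells at pH 6.0 lies at 732 to 746 FPM in sample group 1 and at 254 to 327 FPM in sample group 3.

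Among the enzymes that face the outside of the cell, Ca9 responded in opposite directions in the 2 lines. Ca9 (ENSRNOG00000017073, chromosome 5) is a membrane enzyme known as a target of hypoxia-inducible factors and as a regulator of the pH around tumour cells. In NRK-52E cells at pH 7.4, its level was between 1213 and 1486 FPM with a median of 1281 FPM. At pH 6.0 it was between 254 and 746 FPM with a median of 530 FPM. The pH values did not overlap, and the means of 6 samples each were 1319 FPM (SD 104.9) in controls and 510 ± 250 FPM (SD) in acid. Ca9 had a log2 fold change of -1.37 (SE 0.21, adjusted p = 6.35e-06, edgeR).

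In NRK-49F cells, Ca9 was between 126 and 156 FPM at pH 7.4 with a median of 142 FPM. The samples at pH 6.0 had 234, 233, 239, 246 and 247 FPM and were all higher. Means ± SD were 142 ± 10.8 FPM over the 6 control and 240 ± 6.43 FPM over the 5 acidic samples. This is a rise by 0.76 on the log2 scale (SE 0.22, adjusted p = 0.0116, edgeR). The difference between both responses was -2.13 on the log2 scale (SE 0.31, adjusted p = 6.18e-06, edgeR). Ca9 was 9.29-fold higher in NRK-52E than in NRK-49F cells at pH 7.4 and 2.13-fold higher at pH 6.0 (adjusted p = 6.27e-12 and 0.000126, edgeR). Its order was therefore NRK-52E at pH 7.4, NRK-52E at pH 6.0, NRK-49F at pH 6.0 and NRK-49F at pH 7.4, with no overlap between neighbours. At pH 6.0 the mean in NRK-52E cells was 737 FPM in sample group 1 and 283 FPM in sample group 3, against 240 FPM in NRK-49F cells. The lowest NRK-52E sample at this pH (254 FPM) was close to the highest NRK-49F sample (247 FPM).

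Ca14 (ENSRNOG00000023162, chromosome 2), the other expressed membrane enzyme with an extracellular active site, rose in both lines. In NRK-52E cells it was between 16.9 and 22.4 FPM at pH 7.4 (median 18.4 FPM) and between 28.6 and 36.1 FPM at pH 6.0 (median 33.9 FPM), without overlap. The log2 fold change was 0.82 (SE 0.09, adjusted p = 7.70e-08, edgeR), which is 1.76-fold. In NRK-49F cells it was between 15.6 and 19.8 FPM at pH 7.4 (median 17.9 FPM), whereas the samples at pH 6.0 had 18.1, 20.0, 22.7, 22.9 and 25.8 FPM. These ranges overlapped, and the log2 fold change of 0.29 (SE 0.10, adjusted p = 0.0291, edgeR) passed the test narrowly. Without A021, A039 and A051 it was 0.28 (SE 0.12, adjusted p = 0.103, edgeR). The rise was larger in NRK-52E cells by 0.53 on the log2 scale (SE 0.14, adjusted p = 0.00325, edgeR). At pH 7.4 the lines had 18.7 ± 2.06 and 17.9 ± 1.42 FPM (SD, n = 6 each), a log2 difference of 0.06 (SE 0.09, adjusted p = 0.583, edgeR), whereas at pH 6.0 Ca14 was 1.50-fold higher in NRK-52E cells (adjusted p = 9.39e-06, edgeR).

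Ca5b (ENSRNOG00000029330, X chromosome) encodes the mitochondrial enzyme that supplies bicarbonate within that organelle. It was lower at pH 6.0 in both lines and was the one tested member with more transcript in NRK-49F cells at both pH values. NRK-52E samples had 56.4 to 63.2 FPM at pH 7.4 (median 60.4 FPM) and 24.4 to 49.5 FPM at pH 6.0 (median 34.6 FPM), without overlap. Ca5b fell by 0.77 on the log2 scale in these cells (SE 0.13, adjusted p = 1.64e-05, edgeR).

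NRK-49F samples had 117 to 134 FPM of Ca5b at pH 7.4 (median 127 FPM) and 91.3, 95.5, 100.9, 102 and 107 FPM at pH 6.0. These ranges did not overlap either. The log2 fold change was -0.35 (SE 0.13, adjusted p = 0.0488, edgeR) with all samples in 1 model, and -0.36 (SE 0.06, adjusted p = 0.000666, edgeR) with NRK-49F cells fitted alone. In the joint model the call was lost when A021, A039 and A051 were left out. The log2 fold change was then -0.36 (SE 0.16, adjusted p = 0.106, edgeR). The difference between both responses, -0.41 (SE 0.18, adjusted p = 0.0740, edgeR), missed the threshold. Ca5b was 2.12-fold lower in NRK-52E than in NRK-49F cells at pH 7.4 and 2.83-fold lower at pH 6.0 (adjusted p = 5.40e-08 and 3.47e-10, edgeR).

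Of the members, 3 are cytosolic enzymes, namely Ca13, Ca3 and Car1. All 3 were called higher in NRK-52E cells at pH 6.0. For Ca13 and Car1 this was implied by the filter on low counts. Ca3 was low and its ranges overlapped, with 0.105 to 1.16 FPM in NRK-52E and 0 to 0.183 FPM in NRK-49F cells. Ca13 (ENSRNOG00000021323, chromosome 2) was well detected in NRK-52E cells. NRK-52E samples had 22.8 to 37.5 FPM at pH 7.4 (median 31.7 FPM) and 56.1 to 72.7 FPM at pH 6.0 (median 58.9 FPM), without overlap. Means were 31.4 ± 4.90 at the higher and 61.0 ± 6.24 FPM at the lower pH (SD, n = 6 each). The log2 fold change was 0.96 (SE 0.32, adjusted p = 0.0116, edgeR) in the joint model and 1.05 (SE 0.11, adjusted p = 1.39e-06, edgeR) with NRK-52E cells fitted alone.

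In NRK-49F cells, Ca13 was near the limit of detection. Counts at pH 7.4 were 0, 0, 7, 9, 21 and 69, and at pH 6.0 they were 0, 0, 1, 2 and 3. The highest 2 were A051 (2.61 FPM) and A039 (0.735 FPM), the NRK-49F samples with the most signal of other NRK-52E genes. In A051, Ca13 reached 5.66% of its NRK-52E level beside 5.31% for the 16 other genes, and in A039 it reached 1.59% beside 0.981%. The fitted log2 fold change in NRK-49F cells was -3.59 (SE 0.94, adjusted p = 0.00572, edgeR), -2.40 without A051 (adjusted p = 0.0186) and -1.63 without A021, A039 and A051 (adjusted p = 0.129). Pooled over samples, 106 counts at pH 7.4 and 6 at pH 6.0 gave a ratio of 13.6 (exact 95% interval 6.06 to 38, counting error only). The difference between the responses of the lines was 4.55 (SE 0.97, adjusted p = 0.000605, edgeR), and 2.64 (adjusted p = 0.0109) without these 3 samples. At pH 6.0 the pooled level of Ca13 was 1102-fold higher in NRK-52E than in NRK-49F cells (exact 95% interval 506 to 3003, counting error only), with 7844 and 6 counts. Ca13 and Car1 passed the filter on low counts through NRK-52E cells alone, so that a difference between the lines was implied by their being tested.

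**Figure D2:**
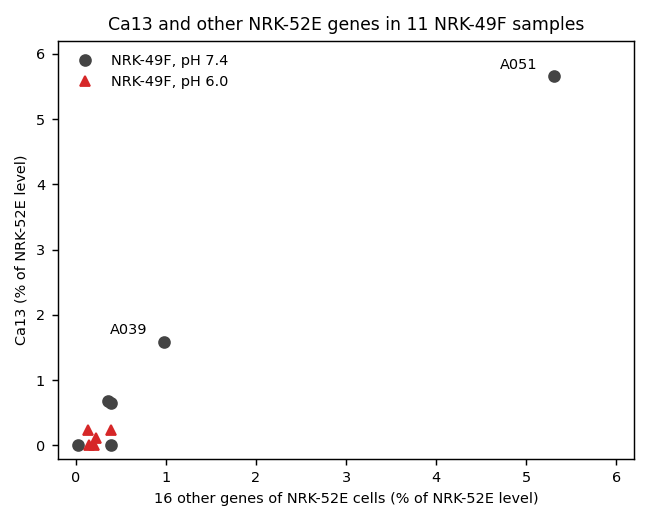
Level of Ca13 (y axis) and summed level of 16 other genes of NRK-52E cells (x axis) in the 11 NRK-49F samples, both as a percentage of the mean level in NRK-52E cells on linear axes. Each point is a sample, and A051 (5.31% and 5.66%) and A039 (0.981% and 1.59%) lie above the other 9 samples on both axes.

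Ca3 (ENSRNOG00000010079, chromosome 2), a cytosolic enzyme of low activity that is abundant in muscle, had between 0 and 40 counts per sample. In NRK-49F cells it was between 0.338 and 0.866 FPM at pH 7.4 (median 0.551 FPM) and had 0, 0.102, 0.148, 0.167 and 0.183 FPM at pH 6.0, without overlap. Its log2 fold change there was -2.32 (SE 0.72, adjusted p = 0.0179, edgeR), with 84 counts at pH 7.4 and 12 at pH 6.0. Without A055, the sample with no count, it was -1.94 (adjusted p = 0.0536). In NRK-52E cells it was between 0 and 0.807 FPM at pH 7.4 and between 0.105 and 1.16 FPM at pH 6.0, and these ranges overlapped. A log2 fold change of 1.31 (SE 0.60, adjusted p = 0.0612, edgeR) missed the threshold, and was 2.02 (adjusted p = 0.00678) without A022, the highest sample at pH 7.4. Sample group 1 had higher levels than sample group 3, with 0.690 to 1.16 against 0.105 to 0.386 FPM at pH 6.0. The responses of the lines differed by 3.63 (SE 0.94, adjusted p = 0.00328, edgeR).

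Car1 (ENSRNOG00000010698, chromosome 2), best known as a major protein of red blood cells, was detected mainly in NRK-52E cells. There it had 0.340 to 2.66 FPM at pH 7.4 (median 1.92 FPM) and 0.891 to 3.82 FPM at pH 6.0 (median 1.86 FPM). These ranges overlapped widely, and the log2 fold change was 0.39 (SE 0.44, adjusted p = 0.461, edgeR). NRK-49F samples had at most 8 counts, reached in A039, with 17 counts over the samples at pH 7.4 and 4 over those at pH 6.0. The pooled level was 15.2-fold higher in NRK-52E cells at pH 7.4 (exact 95% interval 9.28 to 26.4) and 64.5-fold higher at pH 6.0 (24.9 to 238), intervals that cover counting error only. A higher level in NRK-52E cells was implied by the filter on low counts, which Car1 passed through these cells alone.

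Ca11 (ENSRNOG00000021017, chromosome 1), a relative without catalytic activity, rose in both lines, in NRK-52E cells within sample group 1 (log2 fold change 0.87, adjusted p = 8.65e-06) and not by test within sample group 3 (0.10, adjusted p = 0.502, edgeR). In NRK-49F cells it was between 25 and 35 FPM at pH 7.4 (median 31.2 FPM) and had 46.1, 47.7, 48.9, 52 and 55.8 FPM at pH 6.0, without overlap. The log2 fold change was 0.71 (SE 0.16, adjusted p = 0.00135, edgeR). In NRK-52E cells it was between 78.7 and 102 FPM at pH 7.4 (median 87.6 FPM) and between 85.2 and 181 FPM at pH 6.0 (median 122 FPM), and these ranges overlapped. With means of 88.3 ± 9.27 and 129 ± 41.6 FPM (SD, n = 6 each), Ca11 rose by 0.55 on the log2 scale (SE 0.15, adjusted p = 0.00278, edgeR). The responses differed by -0.17 on the log2 scale (SE 0.22, adjusted p = 0.577, edgeR). Ca11 was 2.89-fold higher in NRK-52E than in NRK-49F cells at pH 7.4 and 2.57-fold higher at pH 6.0 (adjusted p = 3.36e-09 and 4.47e-08, edgeR).

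Ca6 (ENSRNOG00000021355, chromosome 5), the secreted enzyme of saliva, was detected mainly in NRK-49F cells and only at a low level. NRK-49F samples had 2 to 20 counts at pH 7.4 and 4, 10, 10, 12 and 16 counts at pH 6.0, and these overlapped. NRK-52E samples had 0 to 2 counts at pH 7.4 and none at pH 6.0. Over the samples at pH 6.0, 52 counts in NRK-49F cells against the limit of 3 counts that 0 allows over the NRK-52E samples made Ca6 at least 20.6-fold higher in NRK-49F cells, for counting error only. At pH 7.4 the ratio was 8.21 (exact 95% interval 3.52 to 23.4), from 50 and 6 counts. Ca6 reached the count limit through NRK-49F samples alone, so that its higher level in that line was implied by its being a member.

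**Figure D3:**
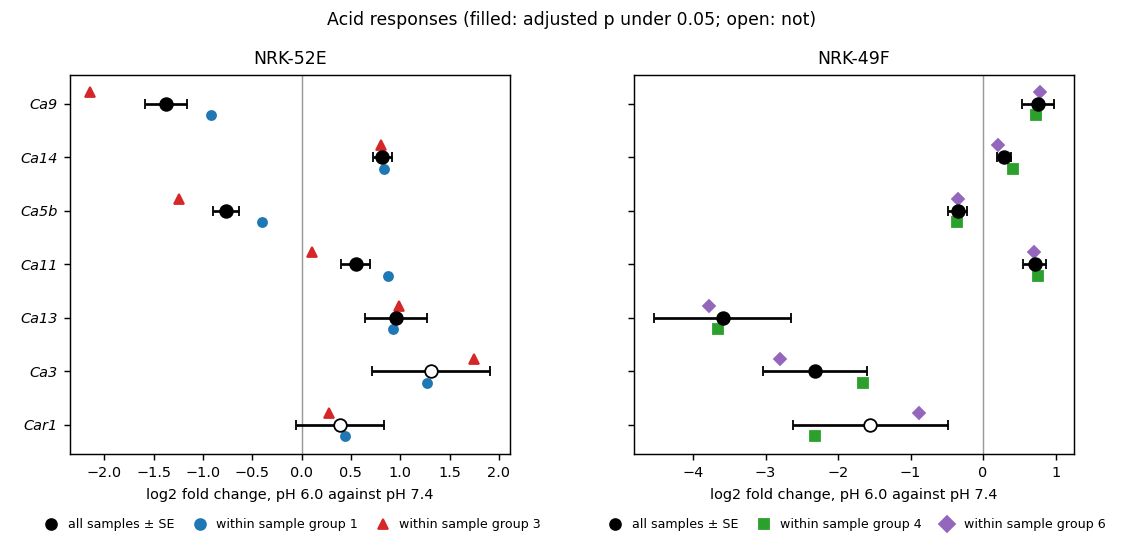
Log2 fold change of each tested carbonic anhydrase at pH 6.0 against pH 7.4 (x axis) in NRK-52E (left) and NRK-49F cells (right), with scales of their own. Black circles with bars give the value over all samples ± SE, filled where the adjusted p was under 0.05, and coloured symbols give the value within each sample group. Ca9 lies at -1.37 on the left and at 0.76 on the right, and the sample groups of NRK-52E cells stand apart for Ca9, Ca5b and Ca11.

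Between the lines, 5 of 7 tested members differed at pH 7.4 (68.8% of all tested genes) and 7 of 7 at pH 6.0 (75.5% of all tested genes), shares near the background. Ca9, Ca11, Ca13 and Car1 were higher in NRK-52E cells at both pH values, Ca14 and Ca3 at pH 6.0, and Ca5b was lower at both. For Ca13 and Car1 this was implied by the filter on low counts, which they passed through NRK-52E cells alone. The ranges of Ca3 overlapped between the lines at pH 6.0. The difference between the acid responses passed the test for 4 of 7 members (41.4% of all tested genes), with Ca9 more strongly lowered in NRK-52E cells and Ca3, Ca13 and Ca14 shifted the other way.

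The sample groups of NRK-52E cells differed in the size of their acid response for 3 of 7 members, where 10.6% of all tested genes did so. Of all tested genes, 48.9% were called within sample group 1 and 57.4% within sample group 3. Within sample group 1, Ca9 went from 1388 ± 109 to 737 ± 7.44 FPM, and within sample group 3 from 1250 ± 38.9 to 283 ± 38.7 FPM (SD, n = 3 each). The log2 fold changes were -0.91 and -2.14, and their difference was -1.23 (SE 0.14, adjusted p = 1.81e-05, edgeR). Both sample groups thus had a lower level of Ca9 at pH 6.0. For Ca5b the log2 fold changes were -0.40 and -1.24, with a difference of -0.84 (SE 0.13, adjusted p = 0.000298, edgeR). Ca11 rose by 0.87 within sample group 1 (142.5, 171 and 181 FPM at pH 6.0), whereas in sample group 3 the log2 fold change was 0.10 (adjusted p = 0.502, edgeR), with 85.2, 91.6 and 102 FPM. The difference for Ca11 was -0.77 (SE 0.17, adjusted p = 0.00698, edgeR). The summed proximal tubule markers, mostly Aqp1, were also lower in sample group 3 than in sample group 1 at pH 6.0. The sum was 114 to 136 FPM in sample group 1 and 35.1 to 41.5 FPM in sample group 3. At pH 7.4 it was 80.1 to 87.3 FPM, so that it rose in sample group 1 and fell in sample group 3. The part of these markers in the differences of the members was not tested. Ca14 and Ca13 had nearly the same response in both, 0.83 and 0.81 for Ca14 and 0.93 and 0.99 for Ca13, the latter with adjusted p = 0.0641 and 0.0445 (edgeR).

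In NRK-49F cells no member differed between sample groups 4 and 6, where 0% of all tested genes were called by edgeR, although 23% and 21.2% responded to pH within sample groups 4 and 6. At an unadjusted p under 0.05 there were 0 members and 596 genes, and DESeq2 called 0 members and 10 genes. The log2 fold change of Ca9 was 0.72 and 0.78, that of Ca11 0.76 and 0.70, and that of Ca5b -0.37 and -0.34. For Ca14 it was 0.41 in sample group 4 (adjusted p = 0.0277) and 0.20 in sample group 6 (adjusted p = 0.257, edgeR), and the difference of -0.21 (SE 0.17) had an adjusted p of 0.997.

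Transporters carry the bicarbonate and protons that the enzymes produce or use. Of 23 genes listed as such transporters or their partners, 13 were tested. Not all 23 carry bicarbonate or protons, and Aqp1 and Slc9a3r1 are among those that do not. Of the 13, 2 rose and 6 fell in NRK-52E cells, and 4 rose and 3 fell in NRK-49F cells. The medians were -0.55 and -0.45, beside -0.12 and 0.00088 over all tested genes. The share called in NRK-52E cells was near that of all tested genes (61.2%, with 28.9% in NRK-49F cells). Without A021, A039 and A051 the counts were 2 and 6, and 2 and 2, where 57.5% and 20.6% of the genes tested were called. Among called genes, the largest rise in both lines was that of the sodium bicarbonate cotransporter Slc4a7, from 2.90 to 7.76 FPM in NRK-52E and from 17.0 to 43.6 FPM in NRK-49F cells (log2 fold change 1.36 in each, adjusted p = 0.00187 and 0.00338, edgeR). The largest called fall in NRK-52E cells was that of Slc4a9, from 1.91 to 0.467 FPM (-2.02, adjusted p = 0.00110). The anion exchanger Slc4a2 had the largest called fall in NRK-49F cells, from 182 to 85.0 FPM (-1.10, adjusted p = 2.12e-10). Larger fitted values that missed the threshold were -3.91 for Slc4a4 in NRK-52E (adjusted p = 0.0619) and -1.74 for Slc4a9 in NRK-49F cells (adjusted p = 0.204, edgeR).

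Among enzymes that consume bicarbonate, the largest change was that of Pc, the mitochondrial pyruvate carboxylase. Of 9 in the list, 7 were tested; 3 rose and 1 fell in NRK-52E cells, and 2 rose and none fell in NRK-49F cells, with medians of 0.01 and 0.07, shares near the 61.2% and 28.9% of all tested genes. The counts were the same without A021, A039 and A051, where 57.5% and 20.6% of the genes tested were called. Pc rose from 12.5 to 50.4 FPM in NRK-52E cells (log2 fold change 2.01, adjusted p = 3.72e-13) and from 33.9 to 50.4 FPM in NRK-49F cells (0.57, adjusted p = 0.000300, edgeR). Ca5b, which shares the mitochondria with Pc, fell in both. The single fall was that of Mccc2, a subunit of methylcrotonyl-CoA carboxylase, by 0.26 on the log2 scale in NRK-52E cells (adjusted p = 0.00362).

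Ca9 is often read beside other targets of hypoxia-inducible factors. Of 20 listed targets, 19 were tested; 8 rose and 7 fell in NRK-52E cells, and 7 rose and 1 fell in NRK-49F cells, with medians of 0.16 and 0.14, where 61.2% and 28.9% of all tested genes were called. Without A021, A039 and A051 the counts were 8 and 6, and 7 and 0, where 57.5% and 20.6% of the genes tested were called. In NRK-52E cells the hexokinase Hk2 had the largest rise, from 12.3 to 41.3 FPM (log2 fold change 1.74, adjusted p = 1.46e-08), in the same cells in which Ca9 fell. In NRK-49F cells it was that of the growth factor Vegfa, from 169 to 466 FPM (1.46, adjusted p = 3.90e-09, edgeR). The largest fitted fall in NRK-52E cells was that of Egln3, a prolyl hydroxylase of the factors. It had 0 counts at pH 6.0 and a median of 0.10 FPM at pH 7.4, with its highest level of 0.560 FPM in A021, against 23.1 FPM in NRK-49F cells at pH 7.4. Adm and Ndrg1 also fell at low levels, with means of 0.256 and 1.47 FPM at pH 7.4 and their highest values there in A021. Ldha also fell, from 398 to 223 FPM, as did Eno1 (605 to 394 FPM) and Egln1 (49.4 to 37.0 FPM), against the 8 rises. In NRK-49F cells, P4ha2, a collagen prolyl hydroxylase, fell by 0.34 (adjusted p = 0.0219, edgeR), with adjusted p = 0.0727 without A021, A039 and A051.

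Carbonic anhydrases take up zinc in the secretory pathway or the cytosol. Of 9 genes of zinc supply, 8 were tested; 3 rose and 2 fell in NRK-52E cells, and 2 rose and 2 fell in NRK-49F cells, with medians of 0.05 and -0.27, where 61.2% and 28.9% of all tested genes were called. Without A021, A039 and A051 the counts were 3 and 2, and 2 and 3, where 57.5% and 20.6% of the genes tested were called. The zinc importer Slc39a14 had the largest rise in both lines, 0.85 in NRK-52E (adjusted p = 9.65e-07) and 0.50 in NRK-49F cells (adjusted p = 0.00209, edgeR). The largest fall in NRK-52E cells was that of the metallothionein Mt2A, which had a median of 0.221 FPM at pH 7.4 and 2.97 FPM in A021, against 208 FPM in NRK-49F cells. In NRK-49F cells the zinc transporter Slc30a7 had the largest called fall (-0.57, adjusted p = 0.00166, edgeR). Mt2A had -0.73 there (adjusted p = 0.117), and -0.82 without A021, A039 and A051 (adjusted p = 0.0212, edgeR), which is then the largest of the 3 called falls.

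**Figure D4:**
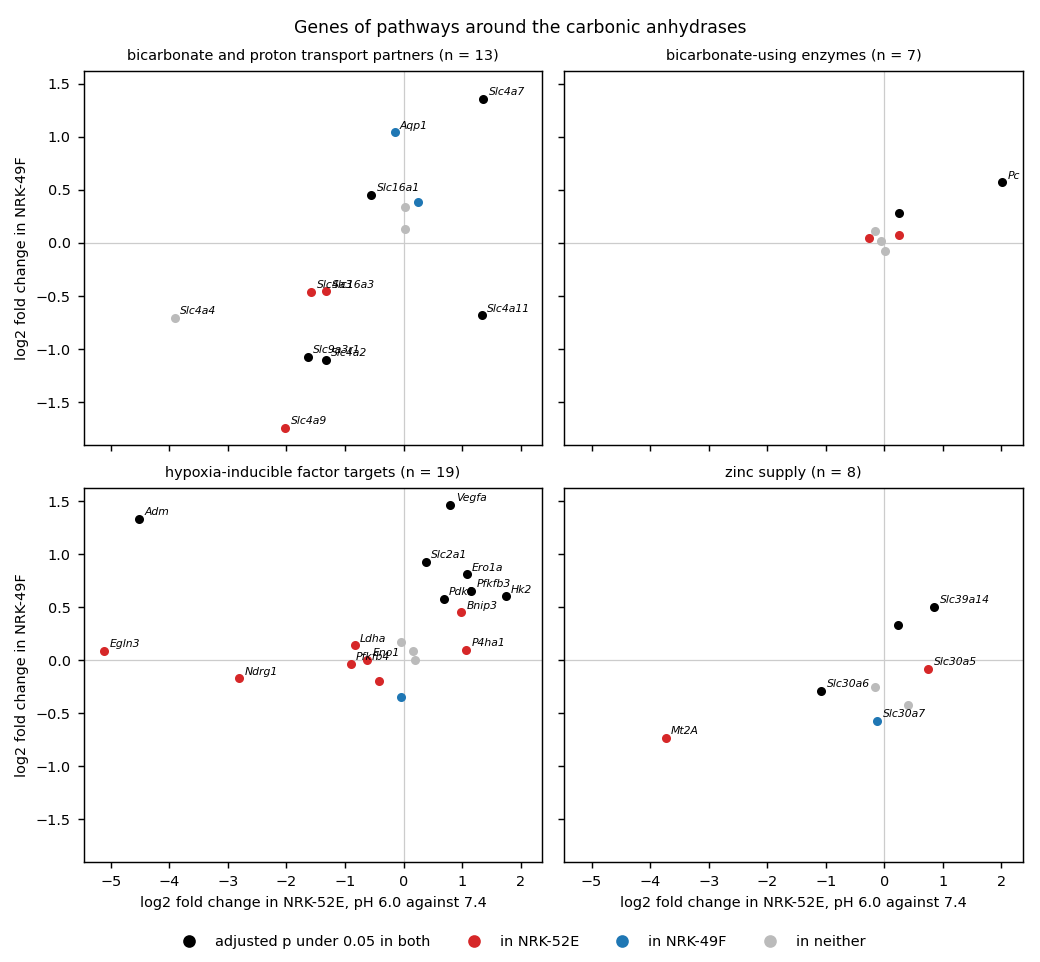
Log2 fold change at pH 6.0 against pH 7.4 in NRK-52E (x axis) and NRK-49F cells (y axis) for the tested genes of the 4 lists, 13, 7, 19 and 8 genes. Each point is a gene, coloured by the line in which its adjusted p was under 0.05, and genes past 0.5 in either line are named. Pc lies at 2.01 and 0.57 and Slc4a7 at 1.36 in both.

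The genes whose pattern was most like that of a member were sought among 10581 genes with a symbol and at least 5 FPM in some condition. Likeness was the root mean square difference of log2(FPM + 0.5), centred over the 23 samples. For Ca9, whose own root mean square deviation from its mean was 1.27, these were Lrtm2 (0.29) and Foxo6 (0.31). For Ca13 (3.02) they were Arhgef26 (0.31) and Ncr3lg1 (0.32), and for Ca11 (0.82) Lsmem2 and Dcaf11 (both 0.21). For Ca5b (0.76) they were Wbp1l (0.15) and Eci2 (0.16), and for Ca14 (0.37) Dcun1d5 (0.09) and Taf9 (0.10).

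The counting options in the paper's methods name no strand setting, so reads of overlapping genes on opposite strands would not be told apart, and the genes next to a member were looked at too. Beside Ca9, Arhgef39 rose in NRK-52E cells (log2 fold change 2.0, adjusted p = 7.80e-08) and in NRK-49F cells (0.89, adjusted p = 0.00787), and Tpm2 had -0.13 (adjusted p = 0.531) and -0.30 (adjusted p = 0.235, edgeR). Ca9 therefore had the direction of Arhgef39 in NRK-49F cells and the opposite one in NRK-52E cells. Beside Ca11, the clock gene Dbp rose in NRK-49F cells (0.74, adjusted p = 0.00139) like Ca11 itself, and had -0.01 (adjusted p = 0.980) in NRK-52E cells, with 0.34 within sample group 1 and -0.51 within sample group 3. Ca6 lies next to Eno1, a glycolytic gene with 1120 FPM in NRK-49F cells at pH 7.4. In RefSeq, Ca13 alone of the members overlapped another gene, the pseudogene Prxl2a-ps1. The part of neighbouring genes in the counts of the members was not tested.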

How the data were processed

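RNA of NRK-52E and NRK-49F cells was sequenced as poly(A) libraries in read pairs. The authors mapped the reads with HISAT2 2.1.0 to rn7 according to the paper's methods (rn6 in the submitters' processing notes) and counted them on Ensembl exons with featureCounts, multi-mapping reads included. The deposited values are raw counts without normalization. Columns were assigned to samples by their labels, and 13 columns without a matching label were not used. The analysis used edgeR 4.0.16 in R 4.3.3. The filter was filterByExpr (minimum count 10, minimum total 15), which left 14777 genes. Libraries were scaled by TMM and genes tested by the quasi-likelihood test in 1 model of 4 conditions, or of 8 conditions with the sample group, with Benjamini-Hochberg adjustment over all tested genes and a threshold of 0.05. SE is the absolute log2 fold change divided by the square root of F. FPM came from edgeR's cpm. DESeq2 1.42.0 was an alternative. Others were RLE scaling, no filter, an adjusted p under 0.01, each line alone, the sample group as a block, each sample group alone, each replicate left out, and other FPM scalings. Samples A021, A039 and A051 were left out as an alternative chosen after seeing the data. Exact intervals are at 95%, and 0 counts are taken to allow 3. Such limits cover counting error only. The members, lists and tests were chosen with earlier results of these data known. The rule named every member, the 2 genes most like it, and the largest rise and fall of each list per line. The steps were tested on simulated data. Members were matched to RefSeq by symbol (8 of 8). Because multi-mapping reads were counted, values may hold reads of related genes. Figures were drawn with matplotlib 3.10.9.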

Additional observations from a re-analysis of the deposited data

Results flagged for a closer look

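Ca13 in NRK-49F cells at pH 7.4 had a single sample far above the other 5: A051 at 2.61 FPM, with the next at 0.735 FPM, a gap of 0.719 of the whole range where the critical value for 6 samples is 0.625. Of 28 groups of values tested in this way it was the single one marked, and chance marks about 1 in 20. The same sample held 5.31% of the NRK-52E level of 16 other genes.

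The acid responses of both lines differed by test for 4 members, with NRK-52E minus NRK-49F differences on the log2 scale of -2.13 for Ca9, 0.53 for Ca14, 3.63 for Ca3 and 4.55 for Ca13. The last was 2.64 without A021, A039 and A051. Of these, Ca9 had calls of opposite direction in the lines, as did Ca13, whose call in NRK-49F cells was lost without those samples.

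The acid responses of sample groups 3 and 1 of NRK-52E cells differed by test for Ca9 (-1.23), Ca5b (-0.84) and Ca11 (-0.77), with the lower value in sample group 3 for each. What else differed between these sample groups is not given in the labels used here.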

How the results depend on the processing

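Counts of called members in NRK-52E cells, between the lines, in the difference between responses and in the differences between sample groups stayed within 1.5 times their value under all alternatives run. The 6 calls in NRK-49F cells went to 2 at an adjusted p under 0.01 (1 higher, 1 lower), to 3 without A021, A039 and A051, and to between 3 and 6 with each replicate left out (3 without A055). No direction was reversed. Ca5b in NRK-49F cells was not called when any of 17 single replicates was left out, NRK-52E replicates included (adjusted p up to 0.102), and Ca14 there not without A039, A040, A042, A051, A054 or A055 (up to 0.104). With no filter on low counts, both also missed the threshold (adjusted p = 0.0632 and 0.0507), as Ca14 did with the sample group as a block (0.0514). Ca3 in NRK-52E cells was called without A022, A023, A036 or A038 (1.47 to 2.02), and its line difference at pH 7.4 without A022 (-1.95). The difference between responses of Ca5b was called without A025 or A026 (-0.48 and -0.54). DESeq2 gave no adjusted p for Ca13, which accounts for counts lower by 1 in the 5 comparisons of pH and line. Without A051, Ca13 differed between the lines at pH 7.4 by 6.62 in place of 5.42. Without A054, Car1 differed between the lines at pH 6.0 by 6.96 in place of 5.73. No paired analysis was possible because the replicate codes are not shared between the pH values. Where leaving out a replicate left 1 sample in a condition, it was assumed to vary like the others. Depth limits what can be said of Ca3, Car1, Ca6 and, in NRK-49F cells, Ca13.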
